A study of Mus musculus with 113 samples.

Results

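Mouse embryos at the 8-cell (8C) stage that had received siRNA against Nr5a2, Rarg and Nr2c2, while Nr1h3 was spared, were compared with embryos that had received a negative control (NC) siRNA. The comparison rests on the 4 RNA-seq libraries whose titles give these treatments, 2 per group, out of 113 samples in the series, of which 92 have a table of expression values. All embryos were wild type by their labels. NC embryos were injected with 15 µM of control siRNA, and Nr5a2/Rarg/Nr2c2 knockdown (KD) embryos with siRNA at 5 µM for each of the 3 genes. Per the study's methods, 3 siRNAs were designed for each gene. The same experiment holds 3 more groups of 2 libraries, in which another receptor was spared: Rarg/Nr1h3/Nr2c2 KD embryos kept Nr5a2, Nr5a2/Nr1h3/Nr2c2 KD embryos kept Rarg, and Nr5a2/Rarg/Nr1h3 KD embryos kept Nr2c2. Per the study's methods a library holds a small pool of embryos and was prepared with Smart-seq2, which copies whole transcripts from little RNA. A KD lowers a transcript and leaves the gene in place, and protein was not measured.

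The 4 genes encode nuclear receptors, transcription factors that carry a zinc-finger DNA-binding domain and a ligand-binding domain. NR5A2 is an orphan receptor that binds an extended single site as a monomer and is active in early embryos, pluripotent cells and liver. RARG is a retinoic acid receptor and NR1H3 (LXR alpha) an oxysterol receptor that controls lipid genes, both as partners of the retinoid X receptors. NR2C2 (TR4) is an orphan receptor that binds direct repeats. The motifs of these receptors are alike, so that leaving out the siRNAs of 1 receptor at a time asks which receptor a set of genes needs.

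Values are FPKM, fragments scaled to transcript length and to the mapped fragments of the library. Where 2 FPKM are given for a group, the first is replicate 1 and the second replicate 2. The 10 libraries of the experiment summed to between 384329 and 543248 FPKM, had 8233 to 8981 genes at 1 FPKM or more, and lay between 0.865 and 1.206 in relative depth, with NC replicate 1 set to 1. FPKM hold no read counts, so the absolute depth is unknown and a value of 0 is written as listed at 0. Across genes, libraries with the same replicate number correlated at a median r of 0.926 and libraries of the same group at 0.907, both on log2(FPKM + 1). Fold changes are on that log2 scale and come from limma. An exact permutation test of 2 against 2 libraries cannot go below p = 0.333, so the calls rest on a spread shared between genes. A gene was called at an adjusted p under 0.05 (Benjamini-Hochberg over 10626 genes tested), and was also counted where the unadjusted p was under 0.05 and the fold change 1 or more on the log2 scale in either direction, here termed the unadjusted limits. Because the replicate numbers paired the libraries, values from a second fit that takes replicate number as block are given where they change a call. Among genes expressed in 8C embryos, Cdh1, the adhesion molecule of compaction, was at 14.5 and 8.70 FPKM in NC and 18.6 and 15.1 in KD. Tead4, a trophectoderm regulator, was at 55.6 and 32.4 in NC and 49.1 and 39.1 in KD. Pou5f1 was at 71.2 and 24.3 FPKM in NC and 28.4 and 43.6 in KD. Of 60 tested genes that the study lists as activated at the 4-cell (4C) or 8C stage, 35 were lower in KD and 25 higher (median -0.25). These values do not set the stage of the embryos.

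The means of the 3 targeted receptors were lower in KD than in NC, but Rarg was lower in only 1 of 2 replicates. Nr5a2 was at 43.5 and 30.5 FPKM in NC embryos and at 3.96 and 9.42 in KD embryos, which left 18.1% of the NC mean. The groups did not overlap (log2 fold change -2.38 ± 0.51, SE, adjusted p = 0.263 in limma, 0.0567 with the replicate block). Nr2c2 was at 10.0 and 2.98 FPKM in NC and at 1.28 and 0.947 in KD, again without overlap (log2 fold change -1.65, adjusted p = 0.600). Rarg was at 17.6 and 2.18 FPKM in NC and at 1.61 and 2.55 in KD. Here the groups overlapped, since Rarg in NC replicate 2 lay between the KD libraries, and within replicate 2 the KD library was not the lower one (log2 fold change -1.34, adjusted p = 0.852). The depletion of Rarg was thus visible in replicate 1 only.

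Nr1h3, the receptor left in place, was at 19.8 and 11.7 FPKM in NC and at 23.0 and 14.9 in KD embryos (log2 fold change 0.26, adjusted p = 0.997). In the 6 libraries of embryos given Nr1h3 siRNA it was between 0.207 and 2.51 FPKM, below each library of both groups that kept it. Among the paralogs, Nr1h2 (LXR beta) was at 51.6 and 16.5 FPKM in NC and at 37.8 and 30.8 in KD, which overlap. The retinoic acid receptor Rarb was at 1.15 and 3.49 FPKM in NC and at 5.03 and 8.23 in KD (log2 fold change 1.26, adjusted p = 0.753), and Nr2c1 (TR2) at 0.731 and 1.501 against 2.38 and 2.18 (0.66, adjusted p = 0.922). For both of these genes the KD libraries lay above the NC libraries, which held for 18.7% of all genes. Rara stayed at or under 0.763 FPKM and Nr5a1 was listed at 0 in all 10 libraries, and neither passed the filter on low values.

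**Figure D1:**
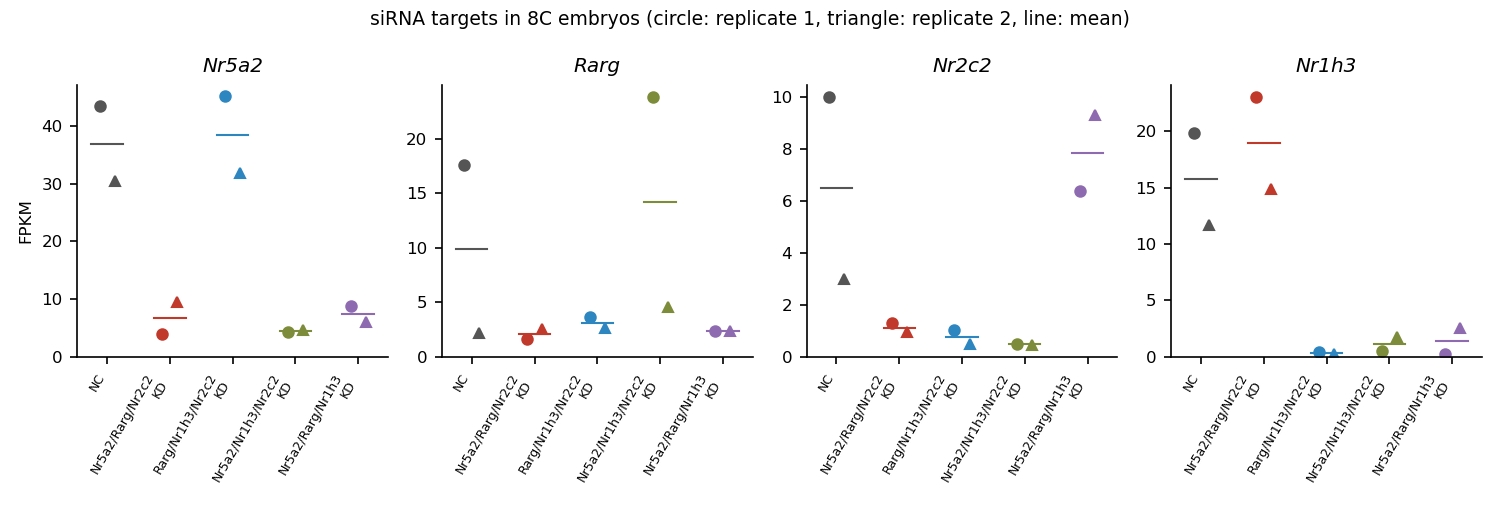
FPKM of the 3 targeted receptors and of the spared Nr1h3 in the 5 groups of 8C embryos (y axis, linear, 1 panel per gene; circles replicate 1, triangles replicate 2, lines the mean of both). Nr1h3 is at NC level in the Nr5a2/Rarg/Nr2c2 KD group (23.0 and 14.9 FPKM) and under 3 FPKM in the other triple KD groups, while Rarg in NC replicate 2 (2.18 FPKM) lies between the KD libraries (1.61 and 2.55).

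Across the transcriptome, 1 gene fell in KD embryos at an adjusted p under 0.05 in limma (0.00941% of the 10626 genes tested) and 0 rose, with 739 genes at an unadjusted p under 0.05 (354 lower, 385 higher). With the replicate block 18 genes were called lower (0.169%) and 17 higher (0.160%), and the gene called without the block was among them. At the unadjusted limits 340 genes were lower (3.20%) and 370 higher (3.48%), and with the block 470 (4.42%) and 601 (5.66%). Without KD replicate 2 the count of higher genes was 735. Both KD libraries lay below both NC libraries for 1296 genes (12.2%) and above them for 1985 (18.7%). The median log2 fold change of all genes tested was 0.11, and medians of gene groups below are to be read against it. The block calls rest on all 4 libraries: with the block and without NC replicate 1, NC replicate 2, KD replicate 1 or KD replicate 2 in turn, 0 to 2 genes were called lower and 0 to 1 higher.

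**Figure D2:**
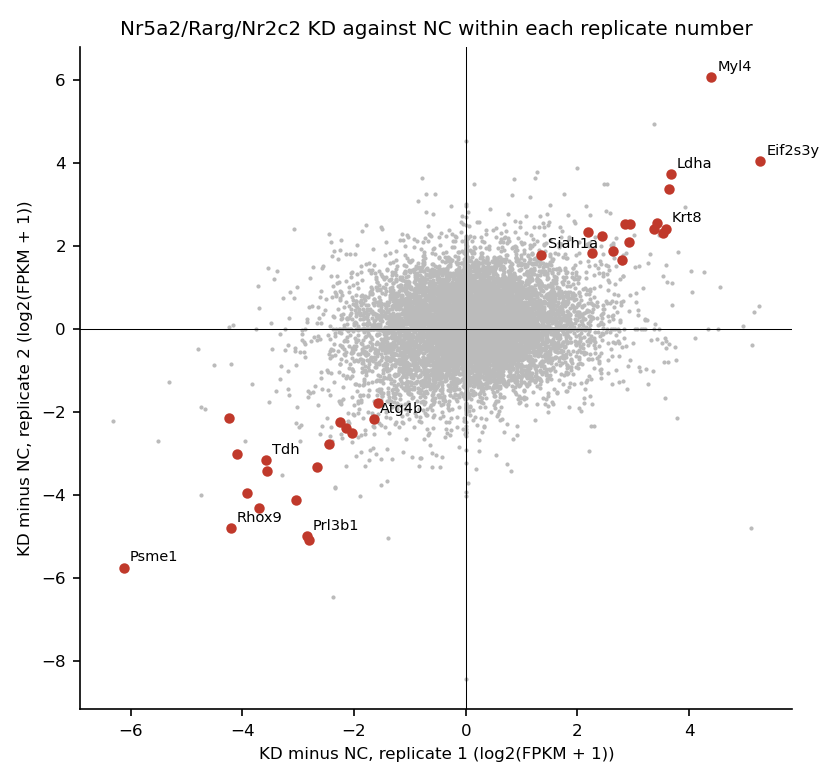
Difference between KD and NC (log2(FPKM + 1)) within replicate 1 (x axis) and within replicate 2 (y axis) for each of the 10626 genes tested (grey), with the 35 genes called with the replicate block in red. The red points lie in the lower left (18 genes) and upper right (17 genes), with Psme1 at the lowest end and Myl4 and Eif2s3y at the highest.

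The gene that fell was Psme1, which encodes a subunit of the proteasome activator PA28 (mm9 chr14:56196960-56200366). Psme1 was at 68.8 and 131 FPKM in NC embryos, was listed at 0 in KD replicate 1 and was at 1.44 FPKM in KD replicate 2. The KD mean was 0.719% of the NC mean, with a log2 fold change of -5.94 ± 0.68 (SE, adjusted p = 0.0278 in limma, 0.00572 with the block). With 1 KD library at 0 the fold depends on the pseudocount, and over the alternatives it lay between -7.92 and -5.30. The adjusted p of Psme1 was 0.225 without NC replicate 1, 0.267 without NC replicate 2, 0.580 without KD replicate 1 and 0.124 without KD replicate 2, and over all alternatives it lay between 0.00428 and 0.580. In the single KD experiments, with NC embryos of their own, Psme1 had a log2 fold change of -5.44 in Nr5a2 KD and of 0.28, 0.18 and -0.018 in Rarg, Nr1h3 and Nr2c2 KD. It was -4.59 in embryos given siRNA against all 4 receptors (quadruple KD).

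Next to Psme1, S100a3, Prl3b1, Mbl2, Sct and Cdc42ep5 were among the genes with the lowest fold changes. S100a3, a calcium-binding protein, was at 45.3 and 133 FPKM in NC and at 5.59 and 2.91 in KD (log2 fold change -3.95, adjusted p = 0.0865, 0.0191 with the block). Prl3b1, a placental lactogen, was at 85.7 and 276 FPKM in NC and at 11 and 7.65 in KD (-3.92, adjusted p = 0.175, 0.0337 with the block). Mbl2, a mannose-binding lectin, was at 11.95 and 18.9 FPKM in NC and listed at 0 in both KD libraries (adjusted p = 0.0865, 0.0191 with the block). For all 3 genes the groups were far apart. Sct, the precursor of the hormone secretin, was at 14.1 and 14.5 FPKM in NC and listed at 0 in both KD libraries (adjusted p = 0.0941, 0.0200 with the block). Cdc42ep5, an effector of the small GTPase CDC42, was at 16.1 and 7.07 FPKM in NC and also listed at 0 in both KD libraries (adjusted p = 0.0865, 0.0191 with the block).

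Tdh, Sdc4, Atg4b and Tex12 were also called lower with the block. Tdh, the threonine dehydrogenase of pluripotent cells, was at 51.7 and 40.2 FPKM in NC and at 3.39 and 3.59 in KD (log2 fold change -3.38, adjusted p = 0.0236 with the block). Sdc4, a heparan sulfate proteoglycan of the cell surface, was at 46.4 and 71.3 FPKM in NC and at 6.51 and 6.19 in KD (-2.995, adjusted p = 0.0239 with the block). Atg4b, a protease of autophagy, was at 124 and 155 FPKM in NC and at 38.8 and 33.5 in KD (-1.91, adjusted p = 0.0334 with the block). The KD replicates of these genes differed little from each other. Tex12, a synaptonemal complex gene, was at 29.3 and 55.6 FPKM against 2.69 and 2.24 (-3.58, adjusted p = 0.0191 with the block). Khdc3, a maternal-effect gene of the oocyte and early embryo, was at 96.0 and 152 FPKM in NC and at 0.215 and 31.6 in KD, so that its KD libraries differed more from each other on the log scale than its NC libraries (-4.28 ± 1.11, adjusted p = 0.309, 0.0567 with the block).

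Promoters were searched for the NR5A2 element because Nr5a2 was among the targets. The letters TCAAGGTCA and TCAAGGCCA were looked for on both strands of RefSeq promoter windows (GRCm38.p6, 250 bases before to 50 after a start), which were available for 8062 of the 10626 genes tested. Either element was present in 68 of these genes (0.843%) and in 311 of the 27025 genes of the whole table (1.15%). Among genes past the unadjusted limits it was in 8 of 260 lower genes (3.08%) and in 1 of 280 higher genes (0.357%). Of these lower genes Uba1 and Rhox3g are X-linked. X-linked genes made up 13.8% of all lower and 0.541% of all higher genes at these limits. Their part in the difference was not tested. The element was in 0 of 13 lower and 0 of 17 higher genes called with the block that had a window. A direct repeat of AGGTCA with 4 bases between, the kind of site that LXR binds, was in 0 of the windows of genes tested. A match describes the letters in a window and is no evidence of binding.

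Of the 8 lower genes with the element, 4 are shown with their flanks to let the element be seen in genes that were lower in both KD libraries. They were chosen after their values were seen. The element is in capitals, coordinates are in mm9 from an exact match of the window, and the strand is the minus strand in each case. In Khdc3 (chr9:72949981-72950021) it lies 208 to 200 bases before the start, in Defb42 (chr14:63665693-63665733) 119 to 111, in Ccl27a (chr4:41721266-41721299) 241 to 233 and in Bhmt (chr13:94407764-94407804) 75 to 67.
Khdc3: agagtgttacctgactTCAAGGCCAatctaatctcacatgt
Defb42: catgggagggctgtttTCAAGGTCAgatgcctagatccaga
Ccl27a: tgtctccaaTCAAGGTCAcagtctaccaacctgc
Bhmt: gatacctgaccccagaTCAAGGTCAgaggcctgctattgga

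Khdc3 is described above. Defb42, a defensin gene, was at 17.7 and 13.3 FPKM in NC and at 2.71 and 0 in KD (log2 fold change -3.09, adjusted p = 0.292, 0.0879 with the block). Ccl27a, a chemokine gene, was at 13.2 and 4.83 FPKM in NC and at 2.02 and 0 in KD (-2.39, adjusted p = 0.674). Bhmt, the betaine-homocysteine methyltransferase of early embryos and liver, was at 319 and 737 FPKM in NC and at 131 and 241 in KD (-1.44, adjusted p = 0.578, 0.0644 with the block). For each gene both KD libraries lay below both NC libraries, but the genes were chosen for being lower in both, so this is no result. It held for 12.2% of all genes.

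On the higher side, Krt8, Plekhb2, Crip1, Ldha, Plin2, Fabp3 and Myl4 were called with the block. Krt8, a keratin of simple epithelia and trophectoderm, was at 2.82 and 2.42 FPKM in NC and at 44.8 and 17.3 in KD (log2 fold change 3.001, adjusted p = 0.267, 0.0191 with the block). Plekhb2, a membrane-associated pleckstrin homology protein, was at 2.65 and 3.51 FPKM in NC and at 38.4 and 25.4 in KD (2.99, adjusted p = 0.0865, 0.0191 with the block). Crip1, a LIM domain protein, was at 131 and 142 FPKM in NC and at 997 and 606 in KD (2.50, adjusted p = 0.175, 0.0191 with the block). None of these groups overlapped. Ldha, a lactate dehydrogenase subunit, was at 4.49 and 1.25 FPKM in NC and at 68.9 and 28.9 in KD (3.70, adjusted p = 0.0334 with the block). Plin2, the coat protein of lipid droplets, was at 5.18 and 10.8 FPKM in NC and at 28.7 and 40.6 in KD (2.04, adjusted p = 0.0381 with the block). Fabp3, a fatty acid carrier, was at 9.42 and 10.9 FPKM in NC and at 74.3 and 67.2 in KD (2.69, adjusted p = 0.0337 with the block). Myl4, a myosin light chain, was listed at 0 in both NC libraries and was at 20.0 and 66.2 FPKM in KD (adjusted p = 0.276, 0.0333 with the block).

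**Figure D3:**
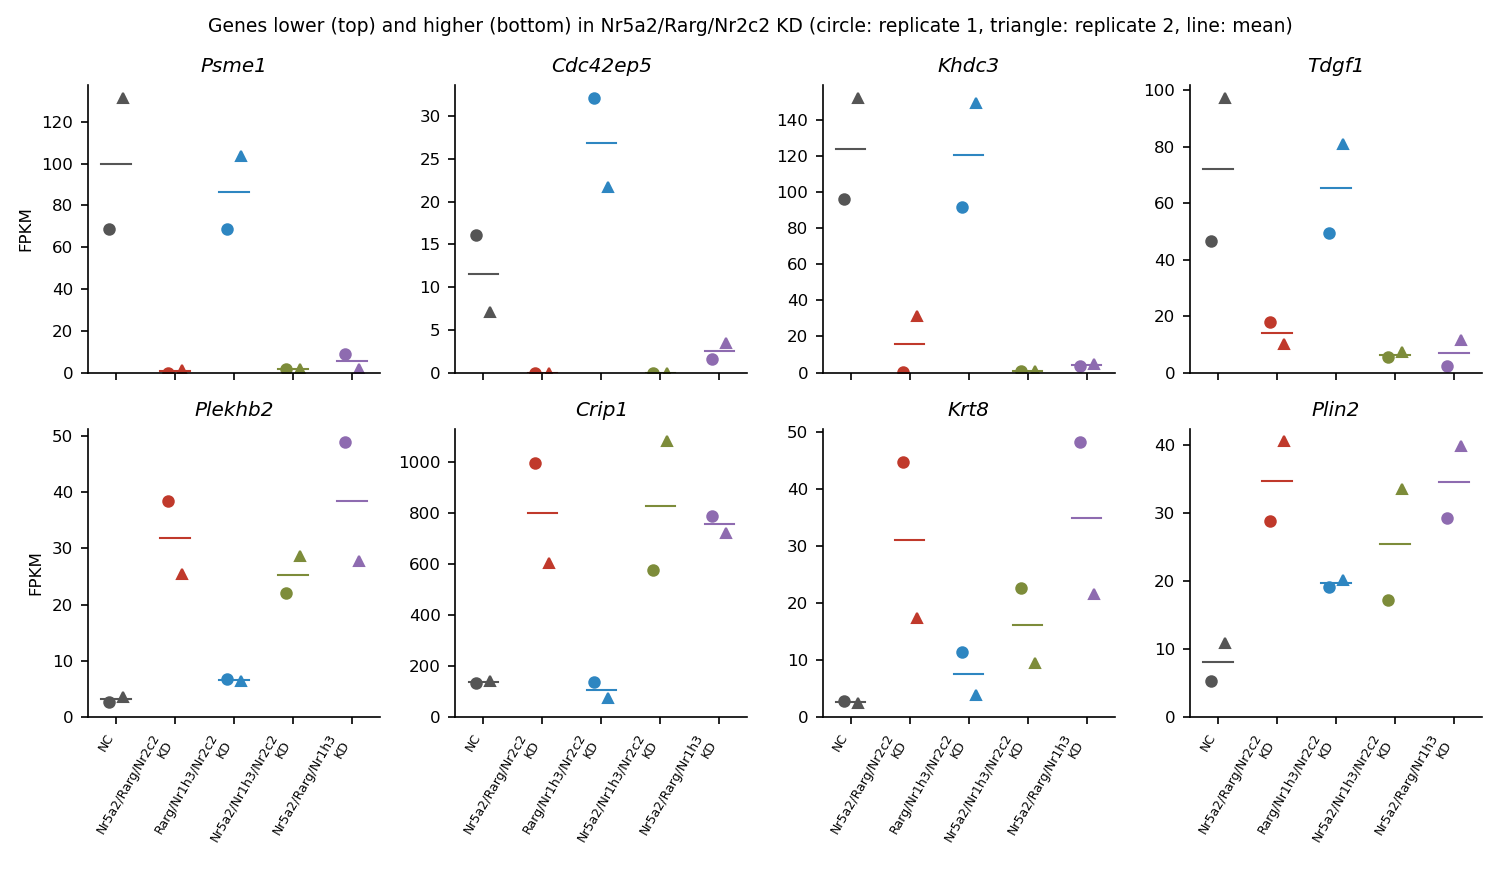
FPKM (y axis, linear) of 4 genes that were lower and 4 that were higher in Nr5a2/Rarg/Nr2c2 KD than in NC, in the 5 groups of 8C embryos (circles replicate 1, triangles replicate 2, lines the mean). For Psme1, Cdc42ep5, Khdc3 and Tdgf1 the Rarg/Nr1h3/Nr2c2 KD group, which kept Nr5a2, has values close to NC or above it, and Plin2 is higher in that group (19.1 and 20.2 FPKM) than in NC (5.18 and 10.8).

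X-linked genes were lower and Y-linked genes higher in KD than in NC, a pattern looked at after the values had been seen. Of 386 X-linked genes tested 273 were lower and 108 higher, and their median was -0.40 on the log2 scale, against 0.13 over 9308 autosomal genes. The X-linked median was -0.27 within replicate 1 and -0.57 within replicate 2. At the unadjusted limits, 47 X-linked genes were lower and 2 higher, which is 13.8% of the 340 genes lower there and 0.541% of the 370 higher, while X-linked genes made up 3.63% of all genes tested. The summed FPKM of 5 Y-linked genes was 0 and 5.43 in NC and 69.0 and 109 in KD, and lay between 24.0 and 66.6 in the other triple KD libraries. Eif2s3y, a translation factor gene on the Y chromosome, was at 0 and 3.77 FPKM in NC and at 37.6 and 77.8 in KD (adjusted p = 0.0106 with the block). Xist, the RNA that coats the inactive X chromosome, was at 43.6 and 2.58 FPKM in NC and at 0.121 and 0.474 in KD. The labels do not give the sex of the pooled embryos, and the part of the sex of the pools in these values was not tested. The homeobox gene Rhox9 is X-linked and was at 17.5 and 27.0 FPKM in NC and listed at 0 in both KD libraries (adjusted p = 0.0523, 0.0107 with the block). Without genes on X and Y, Psme1 was again the 1 gene called, and the counts at the unadjusted limits were 293 lower and 366 higher.

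**Figure D4:**
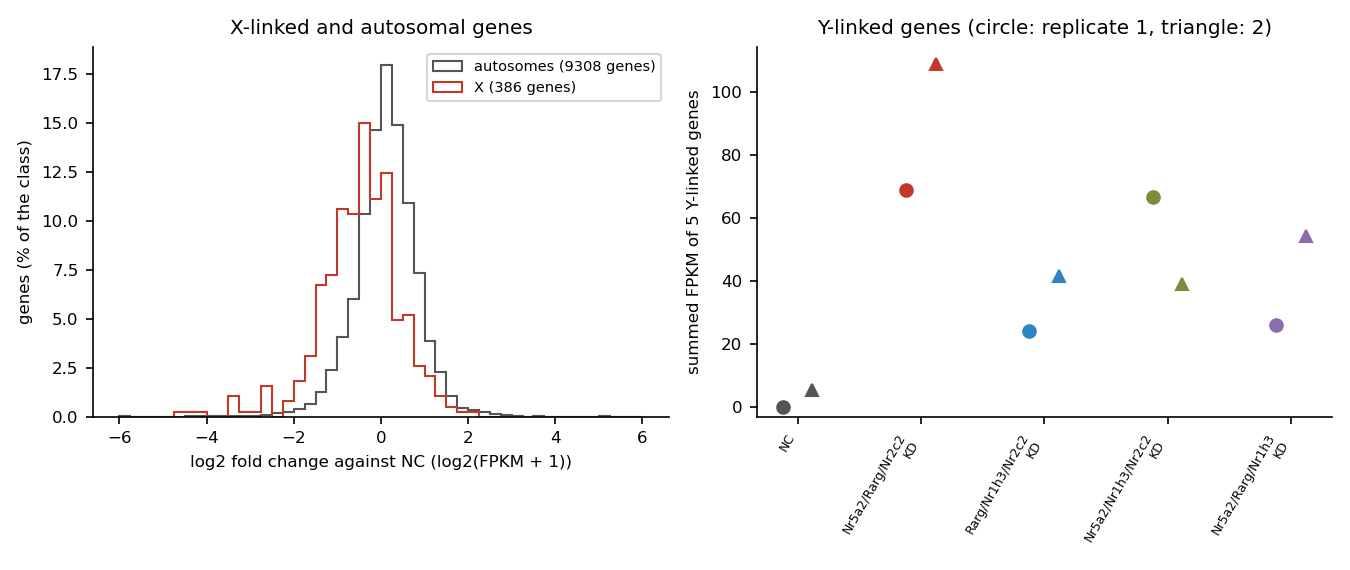
Left, distribution of log2 fold changes against NC (x axis, bins of 0.25) as a share of 386 X-linked (red) and 9308 autosomal (grey) genes, with the X-linked genes shifted to lower values (medians -0.40 and 0.13). Right, summed FPKM of 5 Y-linked genes per library (y axis, linear; circles replicate 1, triangles replicate 2), which is lowest in NC (0 and 5.43) and highest in Nr5a2/Rarg/Nr2c2 KD (69.0 and 109).

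Genes that the study lists as changed in 8C quadruple KD embryos, which are other libraries of this series with an NC group of their own, were shifted the same way when Nr1h3 was spared. Of the 280 genes of the list of lower genes 254 were lower and 26 higher, the median on the log2 scale was -0.93 (SD of a library's median within groups 0.07), and 80 (28.6%) were lower at the unadjusted limits against 3.20% of all genes. The median was -0.80 within replicate 1 and -1.06 within replicate 2. Of the 173 genes listed as higher 161 were higher and 12 lower, with a median of 0.90, and 42 (24.3%) were higher at the unadjusted limits against 3.48% of all genes. Conversely, these 80 genes were 23.5% of the 340 lower in KD, and these 42 genes 11.4% of the 370 higher. The lists contained 8 of the genes called lower and 5 of the genes called higher with the block.

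Lists from single KD embryos differed in where their medians lay. Genes lower in Nr5a2 KD had a median of -0.49 over 604 genes (481 lower, 123 higher, 89 lower and 2 higher at the unadjusted limits), and genes higher in Nr5a2 KD a median of 0.65 over 474 genes (53 lower, 421 higher, 1 and 82). Genes lower in Rarg KD had a median of 0.04 over 72 genes, and genes higher in Rarg KD 0.03 over 112. For Nr1h3 KD the medians were 0.03 over 120 lower and 0.17 over 90 higher genes. These medians lay close to that of all genes, but members were past the unadjusted limits in both directions, with 6 lower (8.33%) and 3 higher (4.17%) of the genes lower in Rarg KD, 14 (12.5%) and 5 (4.46%) of those higher in Rarg KD, 8 (6.67%) and 6 (5.00%) of those lower in Nr1h3 KD and 8 (8.89%) and 6 (6.67%) of those higher in Nr1h3 KD, against 3.20% and 3.48% of all genes. Some of the members past the limits are sex-linked. The Y-linked genes Ddx3y and Eif2s3y are among the genes lower in Rarg, Nr1h3 and Nr2c2 KD, and were higher here. The X-linked genes Rhox9 and Bex1 are among the genes higher in Rarg KD, and were lower here. The part of sex-linked genes in these shares was not tested. Genes lower in Nr2c2 KD had a median of -0.36 over 75 genes (48 lower, 27 higher, SD within groups 0.21), and genes higher in Nr2c2 KD 0.03 over 103.

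Among the genes lower in Nr2c2 KD, 2 mitochondrial genes picked out after their values were seen were low wherever Nr2c2 siRNA was given. Ndufs6, a subunit of respiratory complex I, was at 238 and 470 FPKM in NC and at 79.4 and 134 in Nr5a2/Rarg/Nr2c2 KD (log2 fold change -1.69, adjusted p = 0.344, 0.0381 with the block). It was at 79.2 and 77.9 FPKM in Nr5a2/Nr1h3/Nr2c2 KD and at 103 and 150 in Rarg/Nr1h3/Nr2c2 KD, but at 336 and 397 in the Nr5a2/Rarg/Nr1h3 KD embryos that kept Nr2c2. Parl, a protease of the inner mitochondrial membrane, was at 25.6 and 79.8 FPKM in NC, at 9.27 and 13.2 in Nr5a2/Rarg/Nr2c2 KD and at 35.4 and 36.9 where Nr2c2 was kept (-1.94 against NC, adjusted p = 0.410, 0.0638 with the block). In the single KD experiment, Ndufs6 and Parl had log2 fold changes of -2.98 and -2.72 in Nr2c2 KD embryos, but Parl was also at -1.15 in Nr5a2 KD and -0.98 in Rarg KD. The difference between the groups with and without Nr2c2 siRNA was not tested here, and the list itself was drawn from such a comparison.

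The triple KD groups share the NC libraries, so their values against NC are set side by side and no more. The genes lower in quadruple KD had a median against NC of -0.93 in Nr5a2/Rarg/Nr2c2 KD, -1.17 in Nr5a2/Nr1h3/Nr2c2 KD, -0.94 in Nr5a2/Rarg/Nr1h3 KD and 0.18 in Rarg/Nr1h3/Nr2c2 KD. For the genes higher in quadruple KD the median was 0.90, 0.93, 1.01 and 0.07 in the same order. The genes activated at 4C or 8C, as the study lists them from reference embryos, had medians of -0.25, -0.27, -0.38 and 0.19. Of the 60 of these genes tested, 9 were lower in Nr5a2/Rarg/Nr2c2 KD at the unadjusted limits (15%, against 3.20% of all genes). Among these 9 were S100a3, Prl3b1 and the lens crystallin gene Crygs (17.9 and 50.5 FPKM in NC, 0 and 10.6 in KD). The 2 higher genes (3.33%, against 3.48% of all genes) included the Y-linked gene Ddx3y. Genes activated at late 2C had a median of 0.13 (527 tested) and genes activated in the inner cell mass (ICM) one of 0.32 (61 tested of 130 measured).

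**Figure D5:**
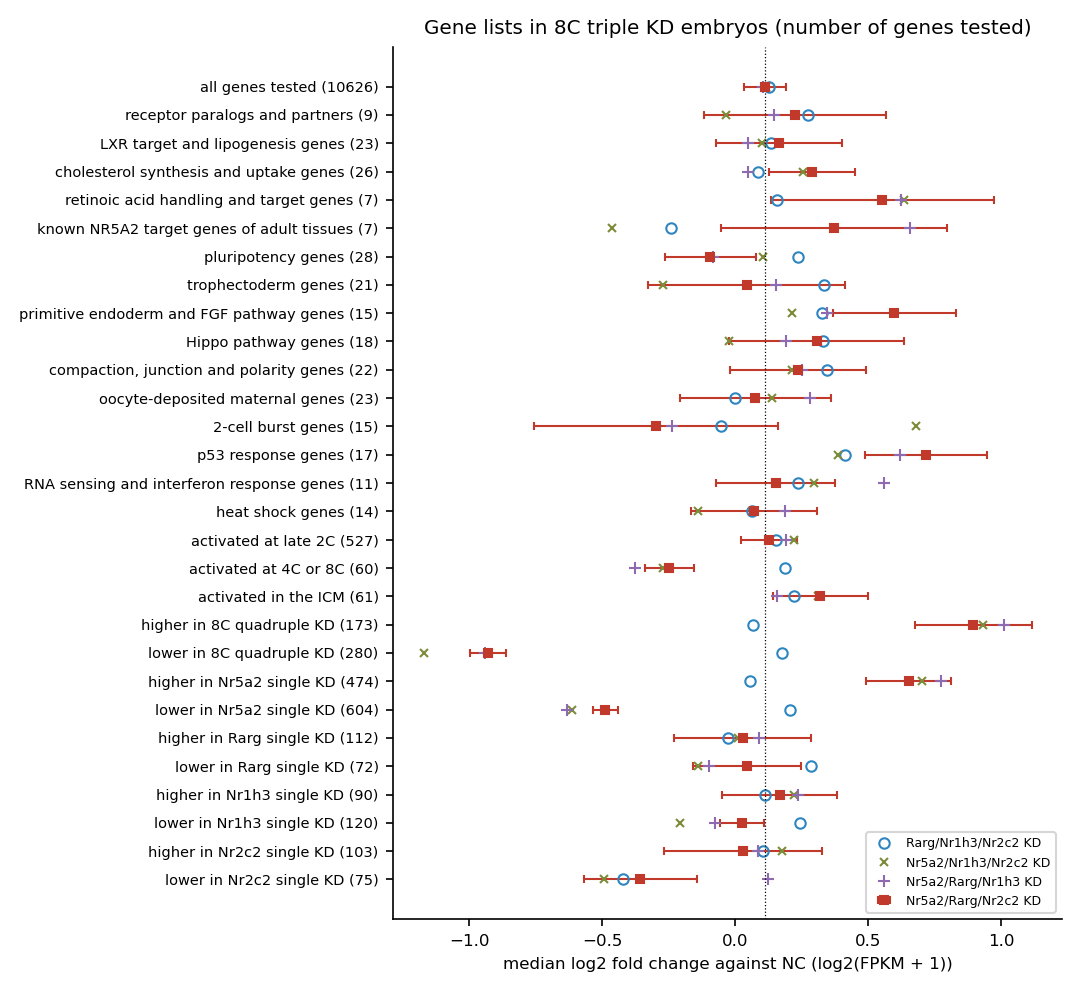
Median log2 fold change against NC (x axis) of each gene list in Nr5a2/Rarg/Nr2c2 KD (red squares, with the SD of library medians within groups as bars) and in the other 3 triple KD groups, which share the NC libraries (numbers of genes tested in parentheses; dotted line, all genes tested). The lists from quadruple KD and Nr5a2 KD lie to the left or right of the line by about the same amount in the 3 groups given Nr5a2 siRNA, and near the line in Rarg/Nr1h3/Nr2c2 KD (0.18 and 0.07 for the quadruple KD lists).

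Pluripotency genes lay on both sides of 0. Of 28 tested, 15 were lower and 13 higher (median -0.09), and at the unadjusted limits 2 were lower (7.14%) and 1 higher (3.57%), against 3.20% and 3.48% of all genes. The lower ones were Nr5a2, itself an siRNA target, and Tdgf1, the NODAL co-receptor, which was at 46.6 and 97.2 FPKM in NC and at 18.0 and 10.2 in KD (log2 fold change -2.23, adjusted p = 0.426, 0.0867 with the block). Nanog was at 15.7 and 13.7 FPKM in NC and at 8.26 and 4.13 in KD (-1.18, adjusted p = 0.763), and Klf5 at 40.1 and 30.2 against 13.4 and 22.5 (-0.96, adjusted p = 0.711). Both had their KD libraries below their NC libraries, which held for 12.2% of all genes. Pou5f1 was at 71.2 and 24.3 FPKM in NC and at 28.4 and 43.6 in KD, and Id3, an inhibitor of basic helix-loop-helix factors, at 375 and 523 against 84.8 and 616, with overlap in both cases. Klf2, a Krüppel-like factor, was at 19.6 and 24.5 FPKM in NC and at 37.6 and 87.6 in KD (1.35, adjusted p = 0.600). Sox2 was at or under 0.308 FPKM in all 10 libraries and was not tested.

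Of 21 trophectoderm genes tested, 2 were lower (9.52%) and 3 higher (14.3%) at the unadjusted limits, against 3.20% and 3.48% of all genes, with a median of 0.04. Hand1, a trophoblast regulator, was at 84.0 and 13.1 FPKM in NC and at 3.73 and 13.9 in KD (log2 fold change -2.04, adjusted p = 0.697), and its groups overlapped. Bmp4, a secreted signal, was listed at 0 in both NC libraries and was at 18.3 and 1.60 FPKM in KD (adjusted p = 0.498). Gata3 was at 1.37 and 4.32 FPKM in NC and at 14.3 and 3.83 in KD, which overlap. The keratin Krt8 is described above. Of 15 primitive endoderm and FGF pathway genes tested, 0 were lower and 2 higher (13.3%, against 3.48% of all genes; median 0.60). Gata4 was at 3.05 and 1.71 FPKM in NC and at 8.44 and 7.70 in KD (1.45, adjusted p = 0.578), and Dusp6, a phosphatase induced by FGF signalling, at 1.60 and 3.93 against 24.0 and 13.9 (2.43, adjusted p = 0.273, 0.0638 with the block).

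Genes of the Hippo pathway included 4 higher and 0 lower at the unadjusted limits among 18 tested (22.2% and 0%, against 3.48% and 3.20% of all genes; median 0.31). The coactivator gene Wwtr1 (TAZ) was at 21.2 and 19.2 FPKM in NC and at 40.3 and 64.4 in KD (log2 fold change 1.30, adjusted p = 0.490). Its target Ctgf was at 3.79 and 1.08 FPKM in NC and at 7.68 and 24.4 in KD (2.23, adjusted p = 0.540), and the target Cyr61 at 8.55 and 2.77 against 33.5 and 15.9 (2.01, adjusted p = 0.673). These 3 genes were named by a rule that asks for no overlap between groups, so their lack of overlap is no result. In the whole list, 6 of 18 genes had both KD libraries above both NC libraries and 4 had both below. Among all genes this held for 18.7% and 12.2%. Of 17 p53 response genes 3 were higher (17.6%, against 3.48% of all genes) and 0 lower (median 0.72), among them Perp at 46.3 and 88.7 FPKM in NC and 165 and 183 in KD (1.42, adjusted p = 0.458). Of 22 compaction, junction and polarity genes and 14 heat shock genes, 0 were past the unadjusted limits in either direction (medians 0.24 and 0.07). Of 11 RNA sensing and interferon response genes 1 was higher (9.09%, against 3.48% of all genes) and 0 lower (median 0.15). The higher one was Oasl2 (0.101 and 1.69 FPKM in NC, 13.3 and 2.97 in KD).

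Because Nr1h3 was kept, LXR target and lipogenesis genes were examined. In the comparison with NC, 23 of 33 were tested, 9 were lower and 14 higher (median 0.17 on the log2 scale), and at the unadjusted limits 1 was lower (4.35%) and 4 were higher (17.4%), against 3.20% and 3.48% of all genes. The higher ones were Plin2, Mylip, Apoe and Dgat2. Mylip was close to the filter limit of 1 FPKM in KD and may have been tested only because of this group. The count of 4 and its share include Mylip. Dgat2, which makes triglycerides, was at 31.4 and 15.6 FPKM in NC and at 103 and 64.7 in KD (1.83, adjusted p = 0.276, 0.0567 with the block), and Apoe, a lipoprotein component, at 17.1 and 9.49 against 22.4 and 54.1 (1.38, adjusted p = 0.673). In the embryos given both Nr5a2 and Nr1h3 siRNA their values overlapped those of Nr5a2/Rarg/Nr2c2 KD, with Dgat2 between 55.8 and 93.95 FPKM there and Apoe between 20.1 and 60.8. Of 26 cholesterol synthesis and uptake genes tested 3 were lower (11.5%, against 3.20% of all genes) and 0 higher (median 0.29), among them Fdft1, squalene synthase, at 215 and 222 FPKM in NC and 123 and 65.2 in KD (-1.27, adjusted p = 0.530). Of 30 retinoic acid genes 7 passed the filter, with a median of 0.55 (SD of a library's median within groups 0.42). At the unadjusted limits 1 of them was lower (14.3%, against 3.20% of all genes) and 0 higher. Of 19 NR5A2 targets known from adult tissues 7 passed it and 0 were past the limits, with Ccne1, cyclin E, at 224 and 173 FPKM in NC and 153 and 61.3 in KD (-1.01, adjusted p = 0.767).

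Embryos that kept Nr1h3 were also compared without NC, as Nr5a2/Rarg/Nr2c2 KD against the mean of Nr5a2/Nr1h3/Nr2c2 KD and Nr5a2/Rarg/Nr1h3 KD, all given Nr5a2 siRNA. One of these groups kept Rarg and the other Nr2c2, so keeping Nr1h3 cannot be told apart here from losing those receptors (log2 difference -1.04 for Rarg and -0.77 for Nr2c2, and -0.71 and -1.02 for Ndufs6 and Parl). In limma 0 genes were called in either direction (0% of 10626), with or without the replicate block, with 217 genes at an unadjusted p under 0.05 (128 lower, 89 higher) and 449 with the block. At the unadjusted limits 116 genes were lower (1.09%) and 73 higher (0.687%), and with the block 182 (1.71%) and 119 (1.12%). Without KD replicate 2 these counts were 258 and 427 in the fit that has no block. Nr1h3 had a log2 difference of 3.25 ± 0.56 (SE, adjusted p = 0.634 in limma, 0.148 with the block), so that even the spared receptor did not pass the adjustment. Nr5a2 overlapped in level, at 4.35, 4.66, 8.72 and 5.99 FPKM in the other 2 groups (log2 difference 0.09 ± 0.44).

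Secretin mRNA was among the genes below both other groups. Sct was listed at 0 in both libraries and was at 3.76 and 6.49 FPKM in Nr5a2/Nr1h3/Nr2c2 KD and 10.3 and 2.14 in Nr5a2/Rarg/Nr1h3 KD (adjusted p = 1). Tsga8, a gene of the testis, was at 1.91 and 1.58 FPKM against 11.4, 23.3, 17.6 and 24.2 (log2 difference -2.82, adjusted p = 0.662, 0.110 with the block). Tsga8 is X-linked, and the X-linked median in this comparison was -0.24, against 0.01 over autosomal genes. Above both other groups were Igsf1, an X-linked immunoglobulin superfamily gene, at 15.6 and 4.93 FPKM against 2.00, 2.50, 0 and 0.837 (2.24), and Tmem144 at 11.8 and 17.5 against 6.04, 0.712, 4.08 and 8.22 (1.66). The list of genes lower in quadruple KD had a median of 0.19 in this comparison (91 lower, 189 higher), against 0.00 over all genes, and the list of higher genes a median of -0.04.

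Of the 23 LXR target and lipogenesis genes tested, 5 lay above both other groups in both libraries (21.7%, against 4.48% of all genes) and 1 below (4.35%, against 3.61%), and 1 was past the unadjusted limits upwards. These 5 genes were picked out after their values were seen. Scd2, a stearoyl-CoA desaturase, was at 5.78 and 11.6 FPKM against 2.62, 3.60, 1.90 and 2.61 (log2 difference 1.34, p = 0.0175 and adjusted p = 1 in limma). Mylip, the LXR-induced ligase that degrades the LDL receptor, was at 1.79 and 0.831 FPKM against 0.535, 0.529, 0.234 and 0.377. The values of the other groups were all under the filter limit of 1 FPKM. Mylip may thus have been tested only because of the group where it was high. The count of 5 and its share include Mylip and are given as a description only. Lpcat3, an LXR-induced phospholipid enzyme, was at 60.5 and 85.5 FPKM against 42.8, 51.0, 41.3 and 58.5, and at 35.3 and 41.4 in NC. The remaining ones were the desaturase gene Fads2 and the lipase gene Pnpla3, whose levels against the filter limit are not shown here. The median of the 23 genes in this comparison was 0.11. The established LXR targets Abca1 and Abcg1 did not pass the filter, and Srebf1 was at 0.676 and 0.310 FPKM against values between 0.236 and 1.44.

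Against Rarg/Nr1h3/Nr2c2 KD embryos, in which Nr5a2 was spared in place of Nr1h3, 2 genes were lower (0.0188%) and 0 higher at an adjusted p under 0.05, with 739 genes at an unadjusted p under 0.05 (432 lower, 307 higher). With the replicate block the counts were 36 lower (0.339%) and 7 higher (0.0659%). At the unadjusted limits 422 genes were lower (3.97%) and 302 higher (2.84%), and with the block 625 (5.88%) and 461 (4.34%). The count of 302 was 134 without Rarg/Nr1h3/Nr2c2 KD replicate 1 and 661 without Nr5a2/Rarg/Nr2c2 KD replicate 2. The genes called were Psme1, at 68.9 and 104 FPKM in Rarg/Nr1h3/Nr2c2 KD (log2 difference -5.78 ± 0.68, SE, adjusted p = 0.0221), and Cdc42ep5, at 32.1 and 21.7 (-4.78 ± 0.58, adjusted p = 0.0221). Without any 1 of the 4 libraries both adjusted p were between 0.121 and 0.486. Nr5a2, at 45.2 and 31.8 FPKM in that group, had a log2 difference of -2.44 (adjusted p = 0.0477 with the block), and Nr1h3 one of 3.91 (adjusted p = 0.115, 0.0207 with the block).

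Creg1 and Crip1 were called in this comparison with the block. Creg1, a lysosomal glycoprotein gene, was at 38.8 and 53.2 FPKM in Rarg/Nr1h3/Nr2c2 KD and at 6.05 and 8.40 in Nr5a2/Rarg/Nr2c2 KD (log2 difference -2.51, adjusted p = 0.0207 with the block). Crip1 was at 137 and 72.3 FPKM in Rarg/Nr1h3/Nr2c2 KD, the second value being below both NC libraries, and at 997 and 606 in Nr5a2/Rarg/Nr2c2 KD (2.95, adjusted p = 0.0150 with the block). The genes lower in quadruple KD had a median of -1.08 in this comparison, those higher 0.82, and those activated at 4C or 8C -0.38, against -0.01 over all genes. The X-linked median was -0.30.

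Maternal RNA and RNA of other cells were read beside these results. Of 15 genes of the 2-cell burst tested 1 was lower (6.67%) and 1 higher (6.67%) at the unadjusted limits, against 3.20% and 3.48% of all genes, with a median of -0.30. Of 23 maternal genes tested 10 were lower and 12 higher (median 0.08). At the unadjusted limits Khdc3 was lower (4.35%) and Gdf9, Zp2 and Zp3 were higher (13%), against 3.20% and 3.48% of all genes. Zp3, a zona pellucida gene of the oocyte, was at 37.3 and 35.4 FPKM in NC and at 111 and 93.0 in KD. Of 20 markers of cumulus, stromal and blood cells, 16 to 18 were listed at 0 in each NC and KD library. Their summed FPKM was 39.0 and 36.9 in NC and 195 and 86.6 in KD, mostly from Hba-a1 (24.5 and 22.1 FPKM in NC, 185 and 81.0 in KD). The blood cell markers Hbb-b1 and Ptprc were listed at 0 in all 10 libraries. Hba-a1 was at 61.3 and 77.1 FPKM in Nr5a2/Nr1h3/Nr2c2 KD and at 42.6 and 128 in Nr5a2/Rarg/Nr1h3 KD. In Rarg/Nr1h3/Nr2c2 KD, which kept Nr5a2, it was at 23.7 and 12.01 FPKM. Its log2 fold change was 1.84 in Nr5a2 KD and 1.74 in quadruple KD. It was -0.14, 0.07 and 0.32 in Rarg, Nr1h3 and Nr2c2 KD. The part of maternal RNA and of RNA of other cells in the results above was not tested.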

How the data were processed

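RNA of pooled 8C embryos was measured by Smart-seq2. Per the study's methods, trimmed reads were mapped to mm9 with TopHat, and the FPKM deposited by the authors come from Cufflinks on the UCSC refFlat annotation. No read counts were used, so the count-based test of the methods was replaced: log2(FPKM + 1) of 10 libraries (5 groups of 2) was fitted with limma 3.58.1 in R 4.3.3 (trended eBayes, Benjamini-Hochberg adjustment) for the 10626 of 24006 genes whose mean reached 1 FPKM in any group. Relative depth came from the spacing of low FPKM. The fit was tested on simulated data.

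Deviations from group means went together in libraries that share a replicate number (r = 0.278 to 0.513 across genes in 10 of 10 pairs of groups), so replicate number was used as a block in an alternative. The labels do not say that replicates are separate collections, so p-values measure the spread between these libraries. Gene lists were described by counts and medians, without a test, and the stage and KD lists are the study's. Members and lists were chosen with earlier results of these data known.

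Named genes were the receptors and paralogs, the 12 lowest and 12 highest against NC and the 6 lowest and 6 highest in the other comparisons (no overlap of groups, mean of 5 FPKM or more in 1 group, unadjusted p under 0.05), up to 4 genes per list by the same rule, genes called and genes the study names. Cdh1, Hand1, Gdf9, Zp2, Srebf1, Ccne1 and Mylip were added after their values were seen. Alternatives were a pseudocount of 0.1, no filter, a filter of 5 FPKM, scaling by median ratios, normalizing by quantiles, eBayes with no trend, the block, the compared groups alone, and leaving out each library. Chosen after seeing the data were leaving out X- and Y-linked genes, and leaving out libraries with the block.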

Additional observations from a re-analysis of the deposited data

Results flagged for a closer look

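Between triple KD groups, 2 genes differed at an adjusted p under 0.05 in limma, depending on whether Nr5a2 or Nr1h3 was spared. Psme1 was listed at 0 in Nr5a2/Rarg/Nr2c2 KD replicate 1, was at 1.44 FPKM in replicate 2, and was at 68.9 and 104 FPKM in Rarg/Nr1h3/Nr2c2 KD, a log2 difference of -5.775. Cdc42ep5 was listed at 0 in both Nr5a2/Rarg/Nr2c2 KD libraries and was at 32.1 and 21.7 FPKM in Rarg/Nr1h3/Nr2c2 KD, a fitted log2 difference of -4.778 that depends on the pseudocount. For both genes the lower group lay below the other in 2 of 2 replicates. Groups of 2 libraries were not searched for single libraries that stand apart.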

How the results depend on the processing

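Of the alternatives to the values of named genes, 1763 gave the same direction and side of the threshold, 60 passed it newly, 19 no longer passed it and 24 had the opposite direction. Against NC, the count of lower genes (1) was 3 with a pseudocount of 0.1, 2 with median-ratio scaling, 2 with quantile normalization, 2 with eBayes without a trend, 18 with the replicate block and 7 with only the groups compared, and the count of higher genes (0) was 1 with a pseudocount of 0.1, 1 without a filter, 17 with the replicate block and 2 with only the groups compared. With the filter of 5 FPKM, which tests fewer genes, the counts at the unadjusted limits were 200 lower and 241 higher, and with the block 601 were higher. Leaving out 1 library gave 0 to 1 lower and 0 to 1 higher called genes and 336 to 735 higher at the unadjusted limits, and with the block, an alternative chosen after seeing the data, 0 to 2 lower and 0 to 1 higher. Fewer libraries leave fewer degrees of freedom, and the cause of the other moves was not tested.

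Against the other triple KD with Nr5a2 siRNA, 2 genes were called higher without a filter, the unadjusted counts were 50 and 23 with the filter of 5 FPKM and 182 and 119 with the replicate block, and leaving out 1 library gave 0 to 1 called lower, 0 to 1 called higher, 87 to 258 lower and 71 to 427 higher. Of these, 139 higher came without Nr5a2/Rarg/Nr2c2 KD replicate 1 and 138 without Nr5a2/Rarg/Nr1h3 KD replicate 2. Against Rarg/Nr1h3/Nr2c2 KD, 1 gene was called higher without a filter, the unadjusted counts were 268 and 174 with the filter of 5 FPKM, the replicate block gave 36 and 7 called and 461 higher, and only the groups compared gave 0 lower. Leaving out 1 library gave 0 to 1 called lower, 0 to 1 called higher and 134 to 661 higher, and with the block 0 to 2 called lower.

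The median of the genes lower in quadruple KD (-0.93) was -0.996 with a pseudocount of 0.1, -1.06 with median-ratio scaling, -1.02 with quantile normalization and -0.97 to -0.81 without 1 library, and that of the genes activated at 4C or 8C (-0.25) was -0.35, -0.38 (scaling and quantile) and -0.30 to -0.13. The direction of Tead4 turned to -0.094 with median-ratio scaling and -0.075 with quantile normalization, and that of Fgfr2 to -0.024 with the latter. Without 1 library, log2 fold changes against NC crossed 0 for Fgfr1 (-0.72 to 0.34), Fgfr2 (-0.29 to 0.58), Gata6 (-1.52 to 0.29), Id3 (-2.37 to 0.47), Nr1h2 (-0.58 to 1.00), Nr1h3 (-0.093 to 0.62), Pou5f1 (-0.996 to 0.52), Rangap1 (-0.46 to 0.38), Satb1 (-1.19 to 0.93), Tead4 (-0.34 to 0.42) and Tfap2c (-0.77 to 0.69), and so did Nr5a2 against the other triple KD with Nr5a2 siRNA (-0.44 to 0.63). With the replicate block, called genes changed as given beside each result. The depth of the libraries is unknown, so low FPKM have no interval.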
